A study of Mus musculus with 15 samples.

Results

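The RNA levels of 10 Eph receptor tyrosine kinase genes were examined in mouse foetal cortex and in cultured cortical neurons with and without Phf6. The genes were Epha3, Epha4, Epha5, Epha6, Epha7, Epha8, Ephb1, Ephb2, Ephb3 and Ephb6, found by their symbols among 23132 genes of the count table. All 10 passed the filter on low counts in each comparison. Epha1, Epha2, Epha10 and Ephb4, the other Eph receptors in the table, are given separately below.

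Eph receptors are cell surface tyrosine kinases whose ligands, the ephrins, are themselves tethered to the membrane of the neighbouring cell. EphA receptors bind mostly ephrin-A ligands, which are held by a lipid anchor, and EphB receptors bind mostly ephrin-B ligands, which cross the membrane. Contact between receptor and ephrin can signal into both cells, and it is best known in the developing brain for repelling growth cones, for setting up topographic maps of axons and for positioning migrating cortical cells. Epha4 is unusual in binding ephrins of both classes, and Ephb6 has a kinase domain without catalytic activity.

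The data comprised 15 RNA sequencing libraries of C57BL/6 foetuses. The E15.5 cortices were dissected and not cultured. They came from 3 Phf6 +/Y controls and 5 Phf6 -/Y foetuses with germline deletion, in 3 litters of which each held 1 control. The E16.5 cortices were dissociated and the neurons were cultured for 24 hours. The 3 control cultures were Phf6 +/Y Nes-cre Tg/+. The 4 deleted cultures had the genotype Phf6 lox/Y Nes-cre Tg/+, so that all cultures carried the Nes-cre transgene, which drives Cre recombinase in neural progenitors and their descendants. The cultures came from 4 litters, and litter 7 held no control. In both models the loxP sites flank exons 4 and 5 of Phf6. The study describes the libraries of each group as separate foetuses, so the p-values measure the spread between foetuses, some of which shared a litter.

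The total count per library was 22790294 to 31157700 in the cortices and 16858007 to 29842150 in the cultures. Phf6 itself, counted over the whole gene, was at 172 CPM (counts scaled by library size) in control cortices and at 48.0 in Phf6 -/Y cortices (log2 fold change -1.86, standard error 0.10, FDR = 1.05e-05). Here and below the FDR is the p of edgeR's quasi-likelihood F test after Benjamini-Hochberg adjustment over all genes tested. In the cultures it was at 247 CPM in controls and at 70.6 CPM after deletion (log2 fold change -1.82, standard error 0.07, FDR = 5.41e-09 from the same edgeR test). The tissue labels were compared with marker genes. The summed level of 8 markers chosen for cortical glutamatergic neurons was 3940 to 5830 CPM in the cortices and 7870 to 8620 CPM in the cultures. Tubb3 and Dcx, which mark neurons in general, were among the 8 and had the highest levels of them. In control cortices they were at 1560 to 1830 and 1510 to 1780 CPM, so the sum is not specific to glutamatergic neurons. Of the 8, 3 were lower in control cultures than in control cortices. The summed level of 8 radial glia markers was 1700 to 2070 CPM in the cortices and 455 to 681 CPM in the cultures. One library stood apart. Phf6 -/Y cortex replicate 1 had 409 CPM over 5 markers of the thalamus and diencephalon, against 31.2 to 54.8 CPM in the other 7 cortices. It also had the lowest sum of the 8 neuron markers (3940 CPM against 5100 CPM or more). The fitted changes of Epha8, Epha6 and Epha4, in which it was the highest or lowest Phf6 -/Y cortex, are therefore also given without it. It was also the lowest for Epha5 and Epha7 and the highest for Ephb2 and Ephb3. For these the range with single libraries left out is given.

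The receptors spanned a wide range of levels per length, given as RPKM (CPM divided by the kilobases of counted exon). In control cortices Epha4 was the most abundant at 53.1 ± 1.30 RPKM (SD, n = 3), followed by Ephb2 at 39.2 ± 4.24, Epha3 at 33.1 ± 1.68, Epha5 at 31.5 ± 3.77, Ephb1 at 26.6 ± 1.08 and Ephb6 at 15.0 ± 1.48 RPKM. Epha7 (7.33 ± 1.37 RPKM), Ephb3 (5.61 ± 1.00), Epha8 (2.38 ± 0.44) and Epha6 (0.62 ± 0.12) were the lowest. Epha3 and Epha5, Epha5 and Ephb1, and Epha7 and Ephb3 were neighbours in this order whose libraries overlapped, so their order was within the spread. In control cultures Epha4 (73.5 ± 7.05 RPKM, n = 3) and Epha5 (69.8 ± 9.63 RPKM) overlapped at the top, and Epha6 (2.48 ± 0.57 RPKM) and Epha8 (1.93 ± 0.50 RPKM) overlapped at the bottom. The 10 receptors together summed to 214 ± 4.12 RPKM in control cortices and 215 ± 10.5 RPKM in Phf6 -/Y cortices (n = 5), and to 302 ± 19.2 RPKM in control cultures and 303 ± 7.80 RPKM in deleted cultures (n = 4). EphA receptors made up 59.7% ± 2.47 of that sum in control cortices and 68.2% ± 2.28 in control cultures.

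**Figure D1:**
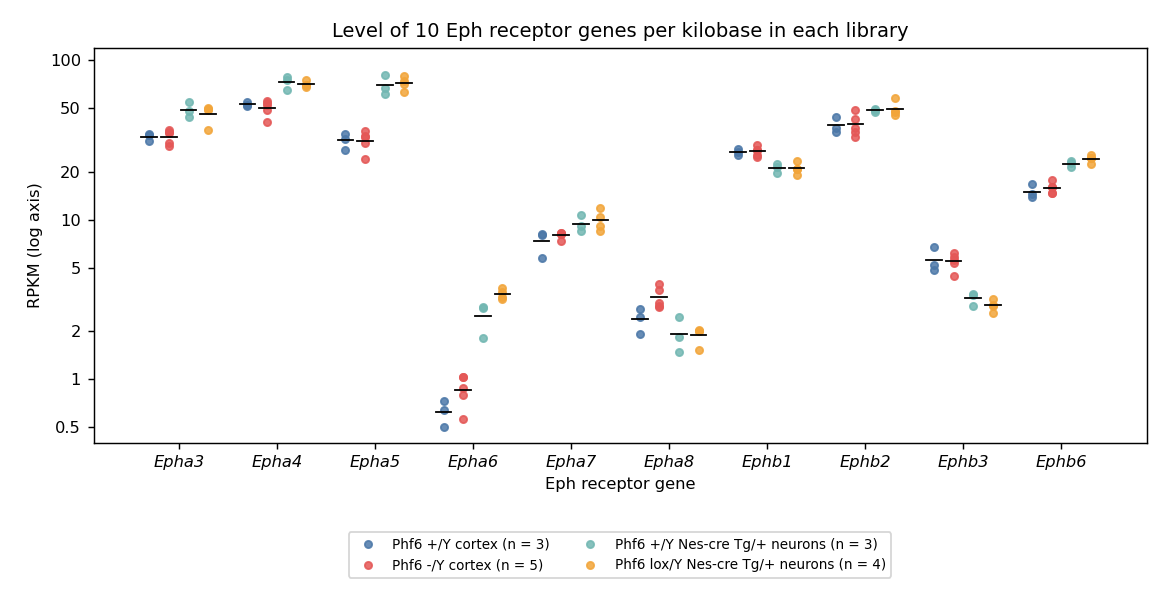
Level of each Eph receptor gene in RPKM on a log axis; each point is 1 library, each short black line a group mean, and colours mark the 4 groups. Epha4 lay at the top of the control cortices (52.1 to 54.6 RPKM) and Epha6 at the bottom (0.50 to 0.73 RPKM), and Epha5 and Epha6 showed the widest distance between cortices and cultures.

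The members lie on 6 chromosomes. Epha7, Epha8 and Ephb2 are on chromosome 4, and Epha3, Epha6 and Ephb3 on chromosome 16. In GRCm38 the gene of Epha8 spans chr4:136929419-136956859, that of Epha6 chr16:59641433-60610911, that of Epha7 chr4:28813066-28967503 and that of Epha5 chr5:84054761-84417818. No 81-base window, the length of a read, was shared between the transcripts of any of the members, so reads of 1 receptor could not be taken for another at full identity. Epha6 shares 107 exon bases with Gm9017 and Ephb1 shares 152 with Gm26846, both on the opposite strand, and the strand setting of the counting is not given in the sources used here. For these 2 receptors, reads of the partner cannot be told apart.

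The 250 bases before 1 annotated transcription start of each member were read from RefSeq (GRCm38.p6). The windows of Epha5, Epha6, Ephb2 and Ephb6 lay inside the annotated span of the gene, and those of Epha4, Epha7, Epha8 and Ephb3 partly. Those of Ephb3 and Ephb6 held exon bases of the gene itself. The counts below are therefore not of upstream sequence alone. They held more G and C than the median window, from 54% in Ephb1 to 84% in Epha8, where the median of 32851 mouse promoter windows was 52.4%. None of the 10 members' windows held TATAAA on either strand, a motif present in 12.4% of all windows. GGGCGG, the core of the GC box bound by Sp1 family factors, was in 32.7% of all windows on either strand. Epha8 held 6 copies, of which 2 overlap, and Ephb6 held 5. Epha5, Epha6 and Ephb3 held 2 each, Epha4 and Epha7 1 each, and Epha3, Ephb1 and Ephb2 none. The Epha8 window had 46 CpG dinucleotides, at percentile 99.7 of all windows. Epha8 is shown because it is the member with the smallest p in the cortex, and Epha3 because its window held no GGGCGG and its fitted genotype effect was the nearest to 0 in the cultures. In the cortex the effect nearest to 0 was that of Ephb1. Capitals mark GGGCGG and its reverse complement CCGCCC, and only bases outside the annotated span of the gene are printed, 207 for Epha8 (minus strand, chr4:136956860-136957066) and 250 for Epha3 (minus strand, chr16:63864176-63864425).
Epha8: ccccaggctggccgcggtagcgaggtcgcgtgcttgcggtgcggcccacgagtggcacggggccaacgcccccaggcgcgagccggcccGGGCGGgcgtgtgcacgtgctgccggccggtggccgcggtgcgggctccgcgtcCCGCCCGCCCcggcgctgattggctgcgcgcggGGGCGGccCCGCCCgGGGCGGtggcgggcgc
Epha3: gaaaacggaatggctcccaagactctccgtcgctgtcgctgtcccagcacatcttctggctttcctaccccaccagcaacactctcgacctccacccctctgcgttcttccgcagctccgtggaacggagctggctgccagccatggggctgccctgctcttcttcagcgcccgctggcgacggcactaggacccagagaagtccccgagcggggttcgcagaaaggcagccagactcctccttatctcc
These matches are a description of the letters and not of bound sites.

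The first comparison asked whether receptor RNA differed between Phf6 -/Y and Phf6 +/Y cortices at E15.5. Epha8 had the largest log2 fold change among the members, 0.48 (95% interval 0.19 to 0.78), a level 1.40 times the control. Epha6 had a log2 fold change of 0.41 (interval -0.19 to 1.00). The other 8 receptors had log2 fold changes between -0.12 and 0.09. None of the 10 passed an FDR of 0.05 by edgeR, DESeq2 or limma-trend, where 0.386% of all 14750 genes tested passed by edgeR. At an unadjusted p below 0.05 there was 1 member by each of the 3 tools, where 10.5% of all genes tested were below it by edgeR. The median log2 fold change of the members was 0.03 against a median of -0.0021 over all genes tested, and the median absolute log2 fold change was 0.06 against 0.10. In bulk tissue, a change in the number of cells that express a receptor and a change in the RNA per cell cannot be told apart.

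**Figure D2:**
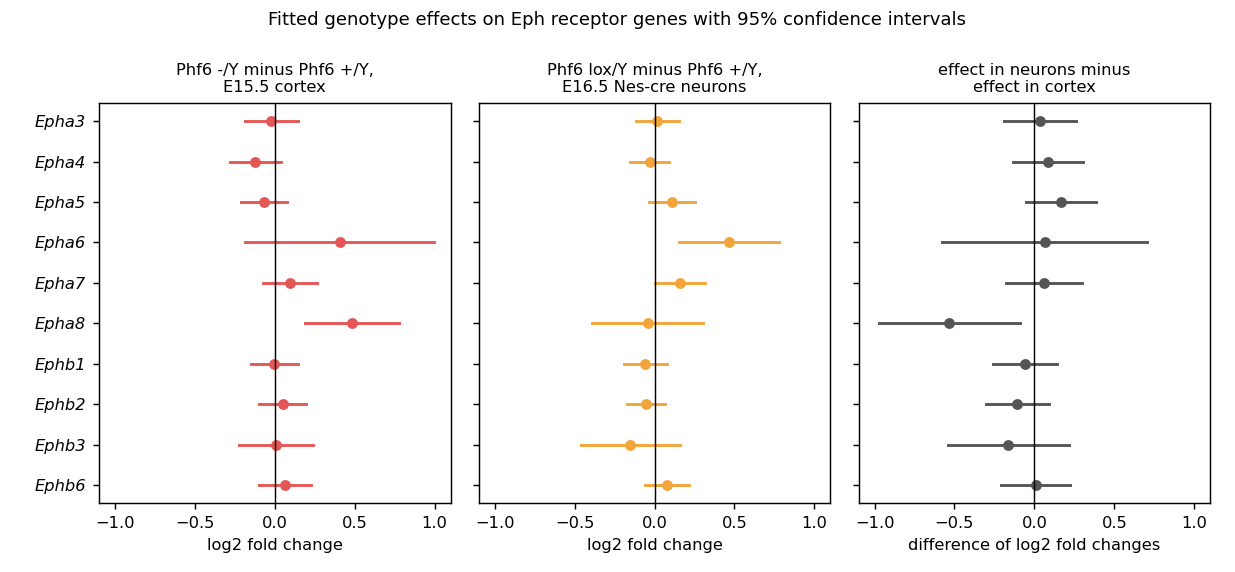
Fitted log2 fold change of each Eph receptor with its 95% confidence interval for the genotype in E15.5 cortex (left), in E16.5 neuron cultures (middle) and for the difference between them (right). Intervals that leave out 0 belong to Epha8 in the cortex (0.19 to 0.78), to Epha6 (0.15 to 0.78) and Epha7 in the cultures, and to Epha8 in the difference (-0.97 to -0.09), and no FDR was below 0.05.

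Epha8, an EphA receptor best known in the dorsal midbrain, was at 11.6, 13.1 and 8.99 CPM in the 3 control cortices. In the 5 Phf6 -/Y cortices it was at 18.6, 17.2, 13.4, 13.6 and 14.1 CPM. Every Phf6 -/Y cortex lay above every control, although the lowest exceeded the highest control by a small margin, and 2.47% of all genes tested were separated in this direction. It follows that each of the 5 Phf6 -/Y cortices was above its litter control, by 0.03 to 0.65 on the log2 CPM scale. The 5 comparisons share 3 controls and are not independent. The difference had a standard error of 0.14 and an unadjusted p of 0.0033 in the edgeR fit, with FDR = 0.192 after adjustment over all genes. The highest Epha8 value belonged to the library with the diencephalic markers. Leaving it out gave Epha8 a log2 fold change of 0.42 with a standard error of 0.16 (unadjusted p = 0.0207, FDR = 0.501, edgeR). That the 4 remaining Phf6 -/Y cortices lay above every control follows from the separation of all 5 and adds nothing to it.

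Epha6, an EphA receptor with 53 to 118 reads per cortex library, was at 3.07, 2.10 and 2.70 CPM in control cortices and at 2.35, 3.69, 4.32, 3.37 and 4.35 CPM in Phf6 -/Y cortices. The groups overlapped through the library with the diencephalic markers, which held the lowest Phf6 -/Y value, and 4 of 5 Phf6 -/Y cortices were above their litter control. In the edgeR fit its change of 0.41 had a standard error of 0.28 (FDR = 0.651). Leaving out that library gave 0.715 with a standard error of 0.29 (unadjusted p = 0.0246, FDR = 0.517), whereas leaving out control replicate 2, the lowest control, gave 0.128 with a standard error of 0.32 (FDR = 0.94). Epha4, a guidance receptor of cortical axons and migrating neurons, was at 330 to 346 CPM in controls and 259 to 352 CPM in Phf6 -/Y cortices, with its lowest value in the same library. Its log2 fold change was -0.12 (interval -0.28 to 0.04), and -0.03 without that library. Epha5, a receptor of ephrin-A guided axons, had a log2 fold change of -0.06 (interval -0.21 to 0.08) and Epha3 one of -0.02 (-0.19 to 0.14). Epha7 was at 45.8, 64.3 and 65.1 CPM in controls and at 58.3 to 65.5 CPM in Phf6 -/Y cortices (log2 fold change 0.09, interval -0.07 to 0.26). On the log2 CPM scale, the library with the diencephalic markers exceeded its litter control for Epha7 by 0.343. The others exceeded theirs by 0.00491 to 0.0154. With single libraries left out, the fitted change ranged from 0.00627 to 0.155 for Epha7 and from -0.0993 to -0.0142 for Epha5.

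Among the EphB receptors of the cortex, Ephb2 had a log2 fold change of 0.05 (interval -0.10 to 0.20), Ephb1 one of -0.0027 (-0.15 to 0.14), Ephb3 one of 0.01 (-0.22 to 0.24) and Ephb6 one of 0.06 (-0.10 to 0.23). The intervals of these 4 receptors leave out changes larger than 0.24 on the log2 scale in either direction. Their groups overlapped in every case. With single libraries left out, Ephb2 ranged from 0.0161 to 0.111 and Ephb3 from -0.101 to 0.0672.

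In the neuron cultures deleted samples were compared with controls within the 3 litters that held both. Epha6 had the largest log2 fold change, 0.47 (interval 0.15 to 0.78), a level 1.38 times the control, and Epha7 one of 0.16 (interval 0.0011 to 0.32). The other 8 receptors lay between -0.15 and 0.11. None of the 10 passed an FDR of 0.05 by edgeR, DESeq2 or limma-trend, where 0.273% of all 13909 genes tested passed by edgeR. At an unadjusted p below 0.05 there were 2 members by edgeR and limma-trend and 1 by DESeq2, where 10.3% of all genes tested were below it by edgeR. The members' median log2 fold change was -0.0065 against 0.00097 over all genes tested.

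Epha6 was at 11.7, 7.66 and 11.9 CPM in the 3 control cultures and at 14.9, 13.9, 13.4 and 15.6 CPM in the 4 cultures without Phf6. All 4 lay above every control, including the culture of litter 7, and 3.61% of all genes tested were separated in this direction. Within litters the difference was 0.24, 0.77 and 0.38 on the log2 CPM scale. The standard error of the fitted change was 0.15 and the unadjusted p 0.00642, with FDR = 0.24 from edgeR. Leaving out control replicate 2, the lowest control, gave 0.312 (FDR = 0.878, edgeR), and over all libraries left out in turn it ranged from 0.312 to 0.589 with FDR from 0.105 to 0.878. Some markers of other regions were also higher in the deleted cultures, while others of the same lists overlapped. The summed level of 5 markers of the cortical hem and Cajal-Retzius cells was 91.2 to 137 CPM in control cultures and 157 to 335 CPM in deleted ones, most of it Reln, with 1 of 4 tested genes passing the FDR threshold. Trp73 was higher without overlap, while Lhx1, Lmx1a and Wnt3a overlapped. The summed level of the 5 diencephalic markers was 10.6 to 12.4 CPM and 17.0 to 19.9 CPM, with 1 of 3 tested genes passing. Most of it was Lhx9 (7.41 to 9.14 CPM and 12.8 to 15.7 CPM). Barhl2 was higher without overlap, Tcf7l2 and Gbx2 overlapped, and Foxb1 was at 0 in every culture. Of 4 choroid plexus markers, summed at 0.88 to 3.09 CPM and 2.98 to 23.2 CPM, the 1 tested gene passed. Ttr was at 0.403 to 2.12 CPM and 2.43 to 22.3 CPM, and Clic6 at 0.0439 to 0.831 CPM and 0.11 to 0.255 CPM. Whether cells of these regions differed in number, and their part in the Epha6 difference, was not tested.

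Epha7 was at 72.4, 67.3 and 84.9 CPM in control cultures and at 68.0, 73.1, 83.3 and 95.1 CPM without Phf6. The groups overlapped, and each of the 3 cultures with a litter control was above it, by 0.01 to 0.31 on the log2 CPM scale (FDR = 0.479 from edgeR). Its log2 fold change was 0.084 without control replicate 2 and 0.0841 without deleted replicate 3, both of litter 5, and 0.00162 with the replicate block in place of litter. Epha5 had a log2 fold change of 0.11 (interval -0.04 to 0.25, FDR = 0.629 from edgeR). Leaving out either library of litter 6 brought it under the threshold. The value was 0.223 (FDR = 0.00778 from edgeR) without control replicate 3 and 0.218 (FDR = 0.0225 from edgeR) without deleted replicate 4, and with each of the other 5 libraries left out its FDR was 0.61 or more. In those 2 fits 494 of 14077 genes (3.51%) and 383 of 13812 genes (2.77%) passed, against 38 with all libraries. In litter 6 Epha5 was lower without Phf6 by 0.121 on the log2 CPM scale, while in litters 4 and 5 it was higher.

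Epha8 was at 6.97, 8.63 and 11.6 CPM in control cultures and at 9.46, 7.18, 9.42 and 9.56 CPM without Phf6. The groups overlapped (log2 fold change -0.04, interval -0.39 to 0.30). Epha4 (-0.03, interval -0.15 to 0.09) and Epha3 (0.02, interval -0.12 to 0.15) had narrow intervals around 0. Of the EphB receptors, Ephb3 had the lowest log2 fold change at -0.15 (interval -0.46 to 0.16), followed by Ephb1 at -0.06 (-0.19 to 0.08), Ephb2 at -0.05 (-0.17 to 0.07) and Ephb6 at 0.08 (-0.06 to 0.21). Ephb1 was below and Ephb6 above the litter control in 3 of 3 litters, by less than 0.11 on the log2 CPM scale.

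**Figure D3:**
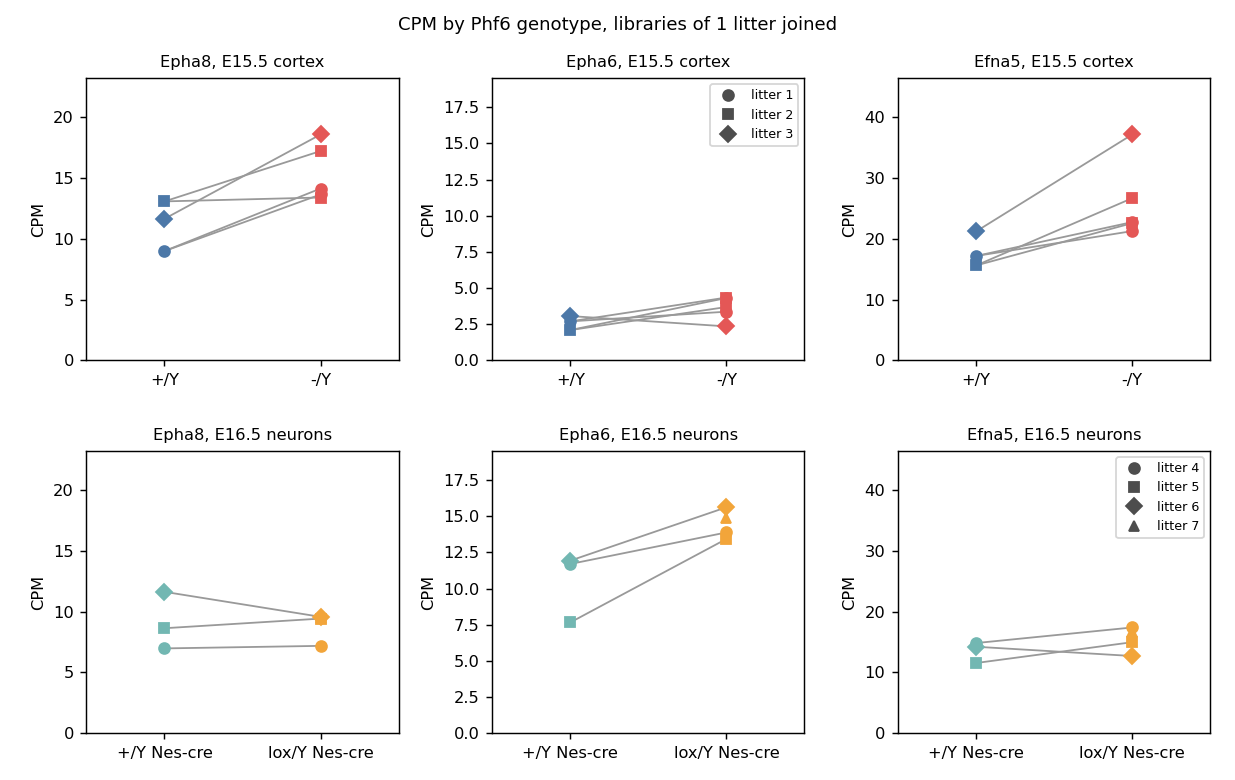
CPM of Epha8, Epha6 and the ligand gene Efna5 in control and Phf6-deleted libraries of E15.5 cortex (top) and E16.5 neuron cultures (bottom); each symbol is 1 library, its shape the litter, and grey lines join libraries of 1 litter. All 5 lines, which start from 3 controls, rise for Epha8 and Efna5 in the cortex, and all 3 lines rise for Epha6 in the cultures.

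Whether the genotype effect differed between cultures and cortex was tested as an interaction in 1 fit over all 15 libraries. The effect on Epha8 was lower in cultures than in cortex by 0.53 on the log2 scale (difference -0.53, interval -0.97 to -0.09, unadjusted p = 0.0204, FDR = 0.909 from edgeR), and by 0.46 without the library with the diencephalic markers (difference -0.46, unadjusted p = 0.0592). For Epha6 the difference was 0.06 (interval -0.58 to 0.70), an interval wider than either effect. The intervals of the other 8 receptors all held 0. None of the 10 passed an FDR of 0.05 by edgeR, DESeq2 or limma-trend, where 0.0133% of all 15001 genes tested passed by edgeR. There was 1 member at an unadjusted p below 0.05 by each tool, where 5.19% of all genes tested were below it by edgeR.

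The ligands were examined in the same fits. In the cortex 1 of 8 ephrin genes passed the FDR threshold, where 0.386% of all genes tested passed by edgeR. Efna5, a lipid-anchored ligand of EphA receptors, was at 21.2, 15.6 and 17.2 CPM in controls and at 37.1, 26.7, 22.6, 21.3 and 22.7 CPM in Phf6 -/Y cortices. It rose by 0.59 on the log2 scale (interval 0.35 to 0.82, standard error 0.11, FDR = 0.0393 from edgeR), a level 1.5 times the control. Each Phf6 -/Y cortex was above every control, and thus above its litter control. The lowest was just above the highest control, where 2.47% of all genes tested were separated in this direction. The call was lost when any of 5 libraries was left out, namely control replicate 1 (FDR = 0.238), 2 (0.253) or 3 (0.0761) and Phf6 -/Y replicate 1 (0.199) or 2 (0.159), with log2 fold changes of 0.503 to 0.713, and without the litter term (0.53, FDR = 0.6). Phf6 -/Y replicate 1, the library with the diencephalic markers, held the highest Efna5 value. In the cultures Efna5 had a log2 fold change of 0.15 (interval -0.15 to 0.44), and the difference between tissues was -0.44 (interval -0.82 to -0.07, FDR = 0.935 from edgeR).

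The remaining ephrins did not pass. At an unadjusted p below 0.05 in the cortex there were 5 of the 8 ephrins, with positive values for Efna5 and Efnb3 (0.35, FDR = 0.0743 from edgeR) and negative ones for Efna4 (-0.36, FDR = 0.176), Efnb2 (-0.27, FDR = 0.174) and Efnb1 (-0.20, FDR = 0.365). Efna4 was at 18.86 to 20.93 CPM in controls and 14.36 to 15.84 CPM in Phf6 -/Y cortices. Efnb2 was at 325.4 to 364.8 CPM in controls. It was at 227.8 CPM in the library with the diencephalic markers and at 299.3 to 327.5 CPM in the other Phf6 -/Y cortices. The median log2 fold change over the 8 ephrins was -0.18. Of the 4 other Eph receptors none passed in the cortex. Epha10, named after its values were seen, was at 1.44 to 1.82 CPM in controls and 2.09 to 7.69 CPM in Phf6 -/Y cortices, the highest in the library with the diencephalic markers (log2 fold change 1.16, FDR = 0.198 from edgeR, and 0.688, FDR = 0.606, without that library). Of 38 genes that act below Eph receptors and ephrins, such as adaptors and kinases, 0 passed in the cortex and 4 were below an unadjusted p of 0.05 by edgeR, near the 10.5% of all genes. In the cultures 0 of 8 ephrins, 0 of 4 other receptors and 0 of 38 downstream genes passed by edgeR, and 2, 0 and 5 were below an unadjusted p of 0.05, where 10.3% of all genes were.

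The second kind of comparison set control cultures at E16.5 against control cortices at E15.5. Epha6 was higher in the cultures by 1.98 on the log2 scale (interval 1.45 to 2.51), 3.95 times the cortex, and Epha5 by 1.15 (0.90 to 1.39), 2.21 times the cortex. Ephb6 (0.58), Epha3 (0.56), Epha4 (0.46) and Ephb2 (0.31) were also higher, while Ephb3 (-0.80) and Ephb1 (-0.34) were lower. Thus 6 receptors rose and 2 fell at an FDR of 0.05, where 24.7% of all 14320 genes tested were called higher and 26.4% lower, and 9 of 10 were below an unadjusted p of 0.05, where 56.7% of all genes were. The median log2 fold change of the 10 receptors was 0.41 against -0.03 over all genes tested. Age, dissociation, culture, the Nes-cre transgene and litter all differed together with the tissue and cannot be told apart.

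Epha5 was at 213, 251 and 271 CPM in the control cortices and at 524, 481 and 627 CPM in the control cultures (FDR = 6.53e-06 from edgeR). Epha6 was at 2.10 to 3.07 CPM in the cortices and at 7.66 to 11.9 CPM in the cultures (FDR = 2.22e-05 from edgeR). For both genes the lowest culture was more than 1.5 times the highest cortex. Epha4, Epha3 and Ephb6 had FDR of 0.000449, 0.00019 and 0.000222, and Ephb2, a receptor of ephrin-B ligands, one of 0.00864 from the same edgeR fit. Ephb3, which is known from midline axon crossing together with Ephb2, was at 27.9, 20.1 and 21.7 CPM in the cortices and at 11.96, 13.9 and 14.2 CPM in the cultures (FDR = 0.000685 from edgeR). Ephb1 was at 119 to 129 CPM in the cortices and at 91.4 to 105 CPM in the cultures (FDR = 0.00505 from edgeR).

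Without overlap between the groups, 7 receptors were higher and 2 lower in cultures, where 28.9% of all genes tested were separated upwards and 31.6% downwards. The seventh was Epha7, at 45.8 to 65.1 CPM in the cortices and 67.3 to 84.9 CPM in the cultures, which missed the threshold (log2 fold change 0.35, FDR = 0.0509 from edgeR). Epha8 overlapped, with a log2 fold change of -0.31 (interval -0.77 to 0.14). The same comparison among Phf6-deleted libraries used no sample of the first, but its foetuses shared litters with the controls, except the culture of litter 7. There Epha6 was higher by 1.99, Epha5 by 1.19, Epha7 by 0.319 (FDR = 0.00778 from edgeR) and Ephb3 lower by 0.916 on the log2 scale, and all 10 receptors passed, 7 higher and 3 lower, where 28% of all 14416 genes tested passed as higher and 31.1% as lower. Epha8 fell by 0.797 (standard error 0.14, FDR = 0.000322 from edgeR). Without the library with the diencephalic markers the count was again 7 higher and 3 lower, and Epha8 fell by 0.724 (FDR = 0.000509). Scaling by library totals in place of TMM moved the median log2 fold change of all genes from -0.03 to -0.17, and Ephb2 (0.174, FDR = 0.113 from edgeR) then missed the threshold.

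**Figure D4:**
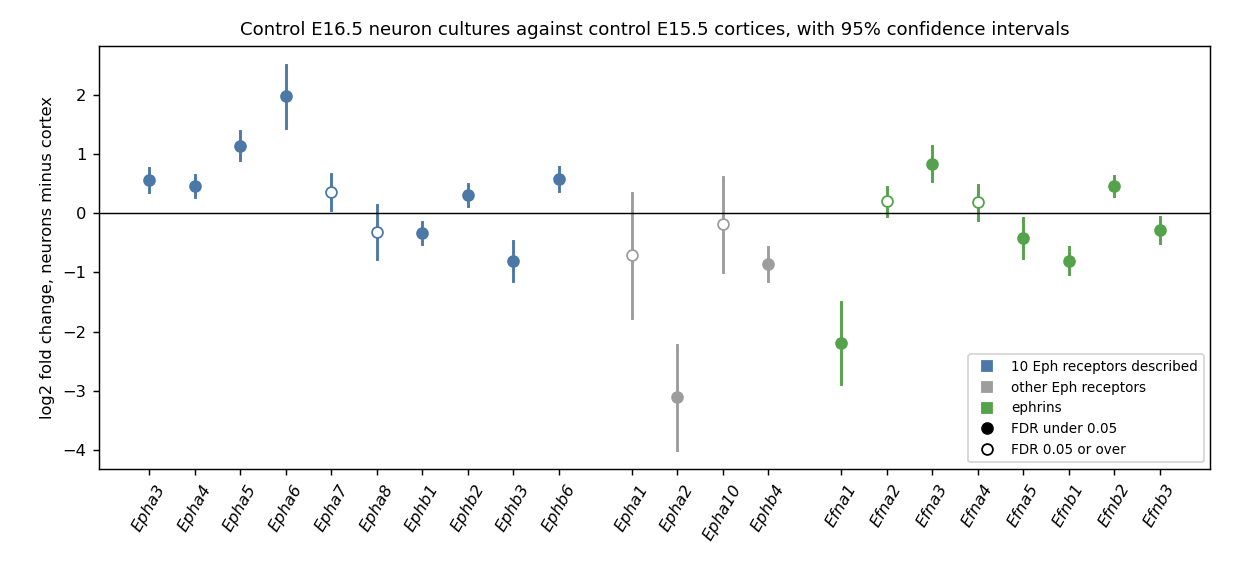
Log2 fold change between control E16.5 neuron cultures and control E15.5 cortices with 95% confidence intervals for the 10 Eph receptors (blue), the other Eph receptors (grey) and the ephrins (green); filled points have an FDR below 0.05. Epha6 (1.98) and Epha5 (1.15) stand highest among the receptors, and Epha2 (-3.11) and the ligand gene Efna1 (-2.19) lowest, both with few reads in the control cultures.

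Many cell type markers also differed between the control tissues, as did many genes at large (24.7% of all genes tested called higher and 26.4% lower). A selection of the marker lists is given. Between control cortices and control cultures, the summed level of the 8 neuron markers, Tubb3 and Dcx included, was 5240 to 5560 CPM against 7870 to 8590 CPM. Of these, 5 were called higher, and Tbr1, Bcl11b and Slc17a7 were called lower. The sum of radial glia markers was 1910 to 1950 CPM against 504 to 681 CPM. That of 9 ganglionic eminence markers was 633 to 859 CPM against 153 to 253 CPM. That of 5 endothelial markers was 148 to 173 CPM against 3.70 to 4.21 CPM, with 1 of the 5 at 0 in every control culture. Of 5 glia markers 1 was called higher and 2 lower, with Gfap at 0.25 to 1.57 CPM against 13.4 to 17.5 CPM. Their part in the receptor differences was not tested.

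Among the other genes of the pathway (8 ephrins, 4 receptors and 38 downstream genes), 18 were higher and 13 lower in control cultures at an FDR of 0.05, where 24.7% and 26.4% of all genes were. The split was 12 higher and 17 lower with scaling by library totals. Of the other Eph receptors, Epha2, which is known from epithelia and vessels, fell by 3.11 (FDR = 3.91e-05 from edgeR) and Ephb4, a receptor of venous endothelium, fell by 0.85 (FDR = 0.000161). Epha2 had only 81 to 98 reads per control cortex and 5 to 12 per control culture. Of the ephrins, Efnb2 (0.47, FDR = 0.000236) and Efna3 (0.84, FDR = 0.000213) rose. Efnb1 (-0.80, FDR = 4.11e-05), Efna1 (-2.19, FDR = 8.95e-05), Efnb3 (-0.28, FDR = 0.0337) and Efna5 (-0.42, FDR = 0.0436) fell, all from the same edgeR fit. Efna1 had 20 to 36 reads per control culture. Of the 38 downstream genes 16 rose and 7 fell. Those with the smallest p were Chn1 (1.09, FDR = 5.91e-07), which encodes a Rac inactivating protein needed for Epha4 signalling, Ngef (-2.42, FDR = 1.13e-06), which encodes the EphA exchange factor ephexin, Inppl1 (-1.25, FDR = 2.53e-06), a lipid phosphatase, Pak1 (0.87, FDR = 5.65e-06), a Rac effector kinase, and Anks1b (0.80, FDR = 1.15e-05), an adaptor of EphA receptors.

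Across the 8 cortex libraries, the genes whose log2 CPM followed Epha8 most closely were Trank1 (Pearson r = 0.976), Gprasp2 (0.970) and Fbxw17 (0.969). Across the 7 cultures, those nearest to Epha6 were Ak5 (0.976), Chac1 (0.974) and Helz (0.974). These are the highest values among all genes tested over few libraries that share litters and genotype, and they are given as a description. Among the receptors in the cortex, the highest r were those of Epha4 with Epha5 (0.812), Ephb2 with Ephb3 (0.793) and Epha3 with Epha5 (0.778), and the lowest were those of Epha5 with Ephb2 (-0.855) and Ephb3 (-0.816). The library with the diencephalic markers held the lowest Epha4 and Epha5 values and the highest Epha8 and Ephb2 values of the 8 cortices. Without it the r of Epha4 with Epha5 was 0.434, that of Epha5 with Ephb2 -0.707 and that of Epha5 with Ephb3 -0.879, while Ephb2 with Ephb3 (0.789) and Epha3 with Epha5 (0.774) moved little, and those of Epha8 with Trank1, Gprasp2 and Fbxw17 were 0.993, 0.967 and 0.958.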

How the data were processed

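RNA was measured in 8 cortices and 7 neuron cultures. The authors aligned paired-end reads to mm10, counted them per Entrez gene with featureCounts and its RefSeq annotation, and deposited the counts without normalization. Identifiers were matched to RefSeq (GRCm38). Entries without an identifier (0.349% to 0.605% of counts), unmatched identifiers, pseudogenes, ribosomal RNA genes and genes with predicted names were left out, and 23132 genes remained.

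Each tissue was fitted with edgeR 4.0.16 in R 4.3.3 (filterByExpr, TMM, robust quasi-likelihood F tests, Benjamini-Hochberg adjustment over all genes tested), with litter from the labels as a term. The interaction was fitted over 15 libraries, and control tissues were compared without a litter term. CPM use TMM library sizes over 15 libraries, RPKM the deposited gene lengths, and within-litter differences log2(CPM + 0.5). Alternatives were DESeq2 1.42.0, limma 3.58.1, other scaling, no filter, no litter term, a replicate block and leaving out each library, and those for Efna5 and Epha10 were added after seeing the data. Same-numbered libraries of different genotype correlated at -0.235 to 0.293, and some of these cortex pairs were also of 1 litter. Libraries of different genotype from 1 litter correlated at -0.123 to 0.481 in the cortices and 0.154 to 0.345 in the cultures. The replicate numbers were not used as pairs in the main fits.

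The members, lists and tests were chosen with earlier results of these data known. By rule, all 10 receptors are named, Phf6, up to 5 further pathway genes past the threshold per comparison by smallest p, and the 3 genes most like the receptor with the smallest p in each tissue. The ephrins, Epha2, Epha10 and Ephb4 are named beyond this rule, as the ligands and the other receptors, after their values were seen.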

Additional observations from a re-analysis of the deposited data

Results flagged for a closer look

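Single libraries stood apart from their group by Dixon's ratio (the gap to the nearest value over the range) for 3 of the 20 combinations of receptor and group of 4 or 5 libraries examined. The nominal rate of about 1 in 20 holds for independent values. Here some libraries share a litter and all receptors share the libraries, so the count cannot be set against that rate. Epha7 in the cortex was at 58.27 CPM in Phf6 -/Y replicate 1, below the other 4 Phf6 -/Y cortices at 64.6 to 65.5 CPM. That is the library with 409 CPM of diencephalic markers, and its litter control was the lowest control for Epha7 at 45.8 CPM. Epha3 in the cultures was at 146.2 CPM in deleted replicate 1, below the other 3 at 194 to 200 CPM. That culture is from litter 7, which has no control, so it does not enter the genotype difference within litters, and a litter difference and a deviating library cannot be told apart. Epha8 in the cultures was at 7.179 CPM in deleted replicate 2, below the other 3 at 9.42 to 9.56 CPM, and its litter 4 control was also the lowest control at 6.97 CPM.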

How the results depend on the processing

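No receptor passed an FDR of 0.05 for genotype in the cortex, or for the difference between tissues, under any alternative run. In the cultures the count was 0 to 1 with single libraries left out (Epha5, without either library of litter 6) and 0 otherwise. Epha8 in the cortex kept its direction, at 0.446 to 0.54 over the other settings (FDR 0.0889 to 0.6) and 0.407 to 0.651 with libraries left out. The count of other pathway genes in the cortex was 1. It was 2 without the filter on low counts (Efna5, Efnb3) and 3 by DESeq2 (Efna5, Efnb3, Vav3). It was 0 without the litter term, 2 with the replicate block in place of litter, and 0 to 1 with libraries left out. Vav3 (log2 fold change 1.03, FDR = 0.169 by edgeR) was at 27.85 CPM in the library with the diencephalic markers. The other Phf6 -/Y cortices were at 10.04 to 12 CPM and the controls at 5.744 to 8.261 CPM. In the cultures the count of other pathway genes was 0, and 0 to 1 with libraries left out (Anks1b). Over all genes the calls went from 57 to 195 by DESeq2, 114 without the filter and 1 without litter in the cortex, and from 38 to 63, 297 and 1 in the cultures, where library totals gave 73 and the replicate block 5, and leaving out control replicate 3 or deleted replicate 4 gave 494 and 383. No replicate block changed a receptor's call except Epha7 between tissues (0.366, FDR = 0.014).

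Values near 0 changed sign. In the cortex without litter, Epha3 was at 8.78e-06, Ephb1 at 0.00942 and Ephb3 at -0.043. Ephb1 was at 0.00267 with DESeq2 size factors, 0.000803 with library totals, 0.000893 without the filter, 0.00276 by DESeq2 and 0.0369 with the replicate block. In the cultures Epha3 was at -0.0828 and Ephb2 at 0.0349 without litter, and at -0.132 and 0.0417 with the replicate block. With libraries left out, the ranges that crossed 0 were -0.0822 to 0.0346 for Epha3, -0.0421 to 0.0435 for Ephb1 and -0.101 to 0.0672 for Ephb3 in the cortex, -0.0522 to 0.0866 for Epha3, -0.0945 to 0.0089 for Epha4 and -0.127 to 0.0842 for Epha8 in the cultures, and -0.239 to 0.345 for Epha6 in the difference between tissues. The cause was not tested. Between control tissues, Epha7 passed under 8 of the 9 settings other than leaving out a single control library (one of them, the deleted libraries without Phf6 -/Y replicate 1, added after seeing the data), all but library totals (0.214, FDR = 0.208). With single control libraries left out, Epha7 passed in 3 of 6 fits, at 0.207 to 0.455 with FDR 0.031 to 0.166 from edgeR. Precision is limited by 3 controls per tissue and, for Epha6 in the cortex, by 53 to 118 reads per library.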
